A study of Rattus norvegicus with 9 samples.

Results

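The genes of antigen presentation by the major histocompatibility complex (MHC) were examined in lumbar spinal cord RNA of 9 Sprague Dawley rats. Members were the rows of the expression table named B2m, Cd74, RT1-Ba, RT1-Bb, RT1-Da, RT1-Db1, Ciita, Tap1, Tap2 and Psmb8, which gave 10 of 34890 loci, 1 locus for each name. All rats were wild type and male, and tissue came from the ipsilateral side at segments L3 to L6. There were 3 groups of 3 samples, each labelled as a separate biological replicate. The JA group was sham-operated and took saline by mouth. The SNI group had spared nerve injury, in which branches of the sciatic nerve are cut, and also took saline. The PLM group had the same injury and took a solution of paeoniflorin, a monoterpene glycoside of peony root, at 20.65 mg/ml together with liquiritin, a flavonoid glycoside of licorice. Liquiritin is labelled 3.98 mg/ml for PLM replicate 1, 3.99 for replicate 2 and 3.100 for replicate 3. Only the digits after the point step up with the replicate, since 3.100 as a concentration is the lowest. The methods describe a single solution for the whole PLM group, with the concentration labelled for replicate 1, so whether the dose differed between these rats is not known. The design therefore asks 2 questions of these genes: whether nerve injury moved them (SNI versus JA), and whether they differed with the drug pair in injured rats (PLM versus SNI). PLM versus JA differs in both injury and drug. The 3 comparisons share their groups of rats, so their results are not independent of each other.

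MHC class II molecules are pairs of an alpha and a beta chain that carry peptides from the endosome to the surface for CD4 T cells. The invariant chain, encoded by Cd74, guides new class II molecules to that compartment, and Ciita is the coactivator without which class II genes are hardly transcribed. MHC class I molecules carry peptides made by the proteasome in the cytosol: Psmb8 is an interferon-induced catalytic subunit, Tap1 and Tap2 together form the pump that moves peptides into the endoplasmic reticulum, and B2m is the light chain of every classical class I molecule. In the rat the complex is called RT1. RT1-B (RT1-Ba, RT1-Bb) and RT1-D (RT1-Da, RT1-Db1) are its class II molecules, the counterparts of human HLA-DQ and HLA-DR. In the resting nervous system class I is low and class II is found mainly on perivascular and meningeal cells, while microglia can come to express it after injury.

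The promoter sequences are shown first, because class II and class I members differ in the motifs they hold. On chromosome 20 of the rat assembly RT1-Da, RT1-Db1, RT1-Ba, RT1-Bb, Tap2, Psmb8 and Tap1 follow each other in this order. Of the 10 members 9 had an entry in the RefSeq promoter table for the rat assembly GRCr8, which spans 250 bases before to 50 bases after each start, and Ciita did not. Both strands were searched for short motifs whose letters were chosen with these sequences in view. Class II promoters are known for an X box, bound by the RFX factors, followed by a Y box, bound by NF-Y, on which Ciita acts. The 4 class II chain genes are shown 5′ to 3′ on the strand of the gene. Capitals mark the Y box CTGATTGG in each, the X box letters (G, any 2 bases, AC, any base, GATG) in RT1-Bb, RT1-Da and RT1-Db1, and the palindrome TGACGTCA in RT1-Ba:
RT1-Ba (chr20:4576946-4577056, plus strand): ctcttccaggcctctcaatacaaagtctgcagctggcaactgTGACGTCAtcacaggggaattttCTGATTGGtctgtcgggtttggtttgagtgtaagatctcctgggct
RT1-Bb (chr20:4604135-4604251, minus strand): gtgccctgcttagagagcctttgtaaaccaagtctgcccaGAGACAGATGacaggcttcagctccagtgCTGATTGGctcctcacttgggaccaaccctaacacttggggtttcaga
RT1-Da (chr20:4515293-4515410, plus strand): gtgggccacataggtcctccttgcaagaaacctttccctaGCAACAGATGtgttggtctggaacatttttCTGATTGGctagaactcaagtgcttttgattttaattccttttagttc
RT1-Db1 (chr20:4560198-4560314, minus strand): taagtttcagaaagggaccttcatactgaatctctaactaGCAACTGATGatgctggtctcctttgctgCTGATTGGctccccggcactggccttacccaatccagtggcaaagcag

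The Y box letters were found in 3.50% of 33469 rat promoters of the same length, the X box letters in 2.84% and the palindrome in 1.83%. An X box with a Y box 10 to 30 bases after it was found in 4 promoters, or 0.012% of all. These were the promoters of RT1-Da, RT1-Db1, RT1-Bb and RT1-Db2, a further class II beta chain gene. Each Y box holds a CCAAT box on the other strand, and CCAAT on either strand was found in 37.5% of promoters. Of the motifs searched, Cd74 had only a CCAAT in its window, which says no more than that the other letters are not in these bases.

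Class I genes are known to answer to interferon through an element made of GAAA repeats, to which IRF proteins bind. The letters GAAA, any 2 bases and GAAA, searched on both strands, were found in 3.92% of promoters. Of the members they were in B2m, Tap1, Tap2 and Psmb8, and in none of the 4 class II chains nor in Cd74. In Psmb8 the match spans the start itself. The other 3 are shown with the match in capitals, which in Tap1 reads on the opposite strand:
B2m (chr3:129549155-129549214, plus strand): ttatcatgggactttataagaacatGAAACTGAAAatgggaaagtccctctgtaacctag
Tap1 (chr20:4668630-4668689, minus strand): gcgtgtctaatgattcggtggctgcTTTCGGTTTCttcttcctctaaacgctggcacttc
Tap2 (chr20:4652303-4652362, minus strand): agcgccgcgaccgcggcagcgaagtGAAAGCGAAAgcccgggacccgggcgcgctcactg

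Levels are in TPM, a unit scaled for gene length and to the same total in each sample, so that genes can be set beside each other. B2m had the highest level of the 10 members in each of the 9 rats, 250.4 to 387.6 TPM, followed by Cd74 with 28.7 to 114.1 TPM. The class II chains, Tap1, Tap2 and Psmb8 lay between 2.5 and 21.5 TPM. Ciita was at 0.02 to 0.17 TPM. A bulk sample cannot tell fewer cells of a type from less RNA per cell, and this holds for each result below. The number of reads behind a TPM value cannot be recovered, so the depth per sample and its counting error are unknown.

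**Figure D1:**
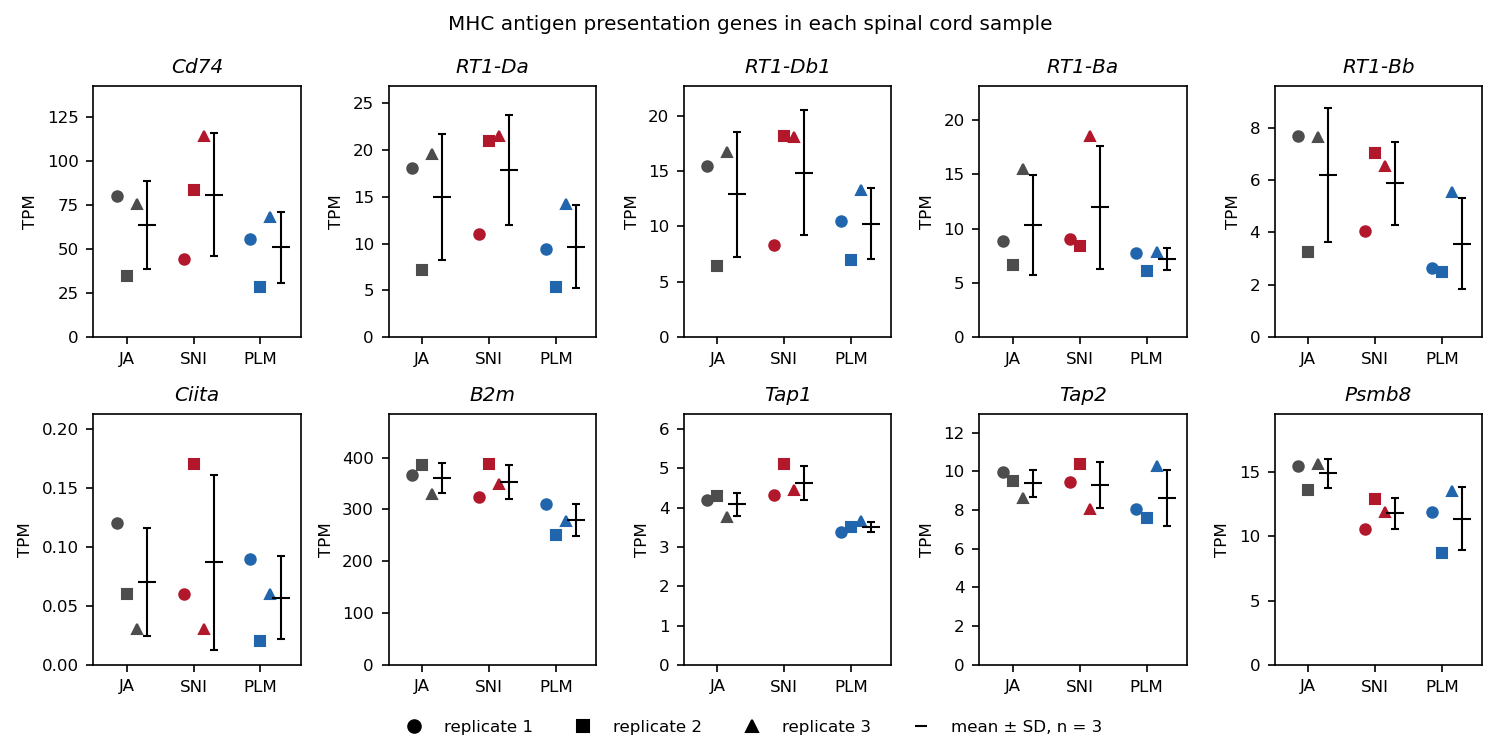
TPM (linear axes from 0) of the 10 members in each of the 9 rats, by group, with symbols for the replicate number and the mean ± SD of 3 rats beside each group. The class II genes and Cd74 spread widely within groups, save RT1-Ba within PLM, and overlap between groups, save RT1-Ba between PLM and SNI, while B2m and Tap1 sit lower in PLM than in both other groups, and Psmb8 is highest in JA.

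The values of a whole sample moved with the group, and the members have to be read against that. The 13 mitochondrial protein genes took 29.1% ± 3.75 of all TPM in the JA group, 24.6% ± 1.303 in the SNI group and 32.0% ± 0.768 in the PLM group (SD, n = 3), which lowers or raises the TPM of all other genes. The median log2 fold change over all loci tested was 0.12 in SNI versus JA, -0.21 in PLM versus SNI and -0.10 in PLM versus JA, and 85.0% of loci were lower in PLM than in SNI. Fold changes are on the values as deposited, and values centred on each sample's median are given beside the main ones. Markers of the labelled tissue were present in every sample, where oligodendrocyte markers summed to between 45060 and 55192 TPM and neuron markers to between 979.0 and 1735 TPM. Astrocyte markers were present but not steady, with sums of 703.3 to 1382 TPM in JA, 1108 to 1353 in SNI and 472.1 to 543.0 in PLM, below every other rat.

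No member passed the test in any comparison. The test was limma on log2(TPM + 1) with Benjamini-Hochberg adjustment over all loci averaging 1 TPM or more in the 6 samples, and a gene was called at an adjusted p under 0.05. In SNI versus JA 0 of 9 members tested were called, against 0% of 15557 loci, and 1 member (Psmb8, lower) had an unadjusted p under 0.05, against 7.10% of loci. In PLM versus SNI 0 of 9 were called, against 13.9% of 15474 loci, and 2 members (B2m and Tap1, both lower) had an unadjusted p under 0.05, against 37.1% of loci. In PLM versus JA 0 of 9 were called, against 0.0195% of 15349 loci, and 1 member (B2m, lower) had an unadjusted p under 0.05, against 11.8% of loci. On median-centred values 0 members were called as well, and 1 (Psmb8 in SNI versus JA, unadjusted p = 0.00828, limma) had an unadjusted p under 0.05, against 4.83% of loci in SNI versus JA, 16.9% in PLM versus SNI and 9.98% in PLM versus JA. Of all loci, 0.814% were called in PLM versus SNI and 0.0130% in PLM versus JA by limma. The study's own rule, an unadjusted p under 0.05 with an absolute log2 fold change above 1, applied here to limma on log2(TPM + 1) and not to the DESeq2 values of the study, took in 0 members in each comparison, against 0.688% of loci in SNI versus JA, 1.65% in PLM versus SNI and 0.938% in PLM versus JA. A p that misses the threshold does not show that the groups were alike, and the intervals below give the differences that 3 rats a group leave possible.

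**Figure D2:**
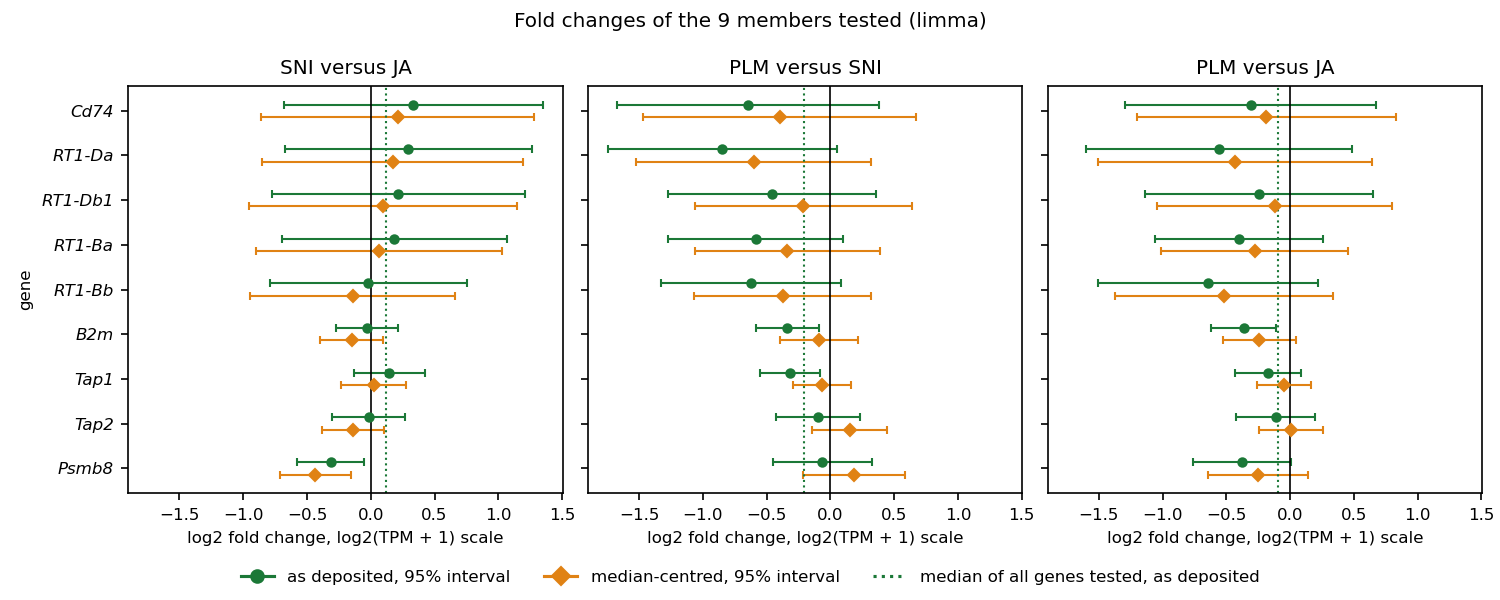
Log2 fold change on the log2(TPM + 1) scale (x axis) with its 95% interval from limma for the 9 members tested (y axis) in each comparison, on deposited values (circles) and median-centred values (diamonds), with the median of all genes tested as a dotted line. The intervals of Cd74 and the class II chains cross 0 in every panel and are wider than those of B2m, Tap1, Tap2 and Psmb8.

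Among the class II genes, the invariant chain gene Cd74 (ENSRNOG00000018735) was the most abundant. It was at 80.1, 34.9 and 75.5 TPM in JA replicates 1, 2 and 3, at 44.6, 83.8 and 114.1 TPM in the SNI replicates and at 55.6, 28.7 and 68.4 TPM in the PLM replicates. The groups overlapped throughout, and within each group the highest rat had 2.30 (JA), 2.56 (SNI) and 2.38 (PLM) times the level of the lowest. Group means were 63.5 ± 24.9 TPM in the JA group, 80.8 ± 34.8 in the SNI group and 50.9 ± 20.3 in the PLM group (SD, n = 3). On the log2 scale Cd74 differed by 0.33 in SNI versus JA (SE 0.43, adjusted p = 0.761, limma; centred 0.21) and -0.64 in PLM versus SNI (SE 0.43, 95% interval -1.67 to 0.38, adjusted p = 0.302, limma). Centred, the latter was -0.40 (adjusted p = 0.698, limma).

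RT1-Da (ENSRNOG00000032844), the alpha chain of RT1-D, followed the same rats. It was at 18.1, 7.22 and 19.6 TPM in JA, 11.04, 21.0 and 21.5 TPM in SNI and 9.47, 5.39 and 14.2 TPM in PLM, replicates 1 to 3 in each. JA replicates 1 and 3 and PLM replicate 3 were above SNI replicate 1, and the groups overlapped in all comparisons. RT1-Da had the widest difference between PLM and SNI among the members, a log2 fold change of -0.85 (SE 0.37, 95% interval -1.75 to 0.05, adjusted p = 0.151, limma), and -0.60 after centring (adjusted p = 0.479, limma). In SNI versus JA it was 0.29 (SE 0.41, adjusted p = 0.780, limma).

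RT1-Db1 (ENSRNOG00000033215), a beta chain of RT1-D, was at 15.5, 6.40 and 16.8 TPM in JA, 8.33, 18.1 and 18.04 TPM in SNI and 10.50, 6.94 and 13.3 TPM in PLM. The groups overlapped, and the rat lowest for RT1-Da in each group was lowest here too. RT1-Db1 had log2 fold changes of 0.22 in SNI versus JA (SE 0.42, adjusted p = 0.839, limma) and -0.46 in PLM versus SNI (SE 0.34, 95% interval -1.28 to 0.36, adjusted p = 0.348, limma), or -0.21 after centring. The ratio of RT1-Da to RT1-Db1 within a sample, which the scaling of the sample does not touch, was 1.17, 1.13 and 1.17 in JA, 1.33, 1.16 and 1.19 in SNI and 0.902, 0.777 and 1.07 in PLM. Every PLM rat had a lower ratio than every other rat, and an exact permutation test on 3 against 3 rats can give no p below 0.10.

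RT1-Db2, a further beta chain gene beside RT1-Db1, stood at 23.1, 16.8 and 22.4 TPM in JA, 25.6, 25.1 and 27.9 TPM in SNI and 28.5, 36.0 and 30.5 TPM in PLM. All 3 PLM rats were above all SNI and all JA rats, whereas RT1-Db1 had its lowest mean in PLM and overlapping groups. From SNI to PLM its log2 fold change was 0.26 (SE 0.10, adjusted p = 0.114, limma) and 0.51 after centring (adjusted p = 0.0853, limma), so it was not called. RT1 genes are polymorphic and have near-identical copies, and how reads were shared between RT1-Db1 and RT1-Db2 was not tested, so the level of each is uncertain.

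RT1-Ba (ENSRNOG00000000451), the alpha chain of RT1-B, was at 8.89, 6.68 and 15.5 TPM in JA, 9.05, 8.39 and 18.5 TPM in SNI and 7.72, 6.06 and 7.84 TPM in PLM. All 3 PLM rats were below all 3 SNI rats, by 0.55 TPM between the nearest pair, and JA overlapped with both. Replicate 3 of JA and of SNI stood high, and the PLM group had the smallest spread (7.21 ± 0.995 TPM, SD, n = 3). RT1-Ba differed by -0.59 on the log2 scale in PLM versus SNI (SE 0.29, 95% interval -1.27 to 0.10, adjusted p = 0.181, limma), and -0.34 after centring, where the groups overlapped.

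RT1-Bb (ENSRNOG00000032708), the beta chain of RT1-B, was at 7.67, 3.24 and 7.65 TPM in JA, 4.05, 7.02 and 6.54 TPM in SNI and 2.64, 2.5 and 5.56 TPM in PLM. PLM replicates 1 and 2 were below every other rat, while PLM replicate 3 was within both other groups. RT1-Bb had log2 fold changes of -0.02 in SNI versus JA (SE 0.32, adjusted p = 0.983, limma), -0.62 in PLM versus SNI (SE 0.29, 95% interval -1.33 to 0.09, adjusted p = 0.173, limma) and -0.64 in PLM versus JA (SE 0.36, adjusted p = 0.537, limma). Centred, PLM versus SNI was -0.38 (adjusted p = 0.564, limma) and PLM versus JA -0.52.

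As a group, Cd74 and the 4 class II chains had a lower fitted mean in PLM than in SNI for 5 of 5 genes on deposited and on centred values. Their median log2 fold change was -0.62 beside -0.21 over all loci tested, and -0.38 beside 0.04 when centred. In SNI versus JA 1 of 5 was lower, with a median of 0.22 beside 0.12 over all loci. In PLM versus JA the fold changes lay between -0.64 (RT1-Bb) and -0.24 (RT1-Db1), with -0.31 for Cd74, -0.40 for RT1-Ba and -0.56 for RT1-Da, and adjusted p-values from limma of 0.537 to 0.820. The size of each hung on single rats: with a rat left out RT1-Bb ranged from -0.99 (without JA replicate 2) to -0.47 (without JA replicate 1), RT1-Da from -0.98 (without JA replicate 2) to -0.23 (without PLM replicate 2), RT1-Db1 from -0.65 (without JA replicate 2) to -0.013 (without PLM replicate 2) and RT1-Ba from -0.65 (without JA replicate 2) to -0.094 (without JA replicate 3), and Cd74 changed sign without PLM replicate 2 (0.049). Markers of other cells also differed between PLM and SNI, and their part in this was not tested. By limma, 8 of 8 astrocyte markers were called lower (median log2 fold change -1.24), and 7 of 8 when centred (-0.99). Of the meningeal and fibroblast markers 5 of 6 were lower and 2 called (-0.61), with 0 called when centred (-0.36). The Schwann cell markers were lower in 6 of 6 with 0 called (-0.64), and in 5 of 6 when centred (-0.39). The red blood cell markers were higher in 6 of 6 with 0 called (0.82, centred 1.07). Of all loci 85.0% were lower and 13.6% called lower, as deposited. The 5 class II genes varied together from rat to rat, so the count of 5 is not 5 separate observations.

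The spread within groups of these 5 genes was wide for this tissue. The pooled SD of log2(TPM + 1) within groups was 0.66 for Cd74, 0.63 for RT1-Da, 0.59 for RT1-Db1, 0.50 for RT1-Bb and 0.48 for RT1-Ba, against a median of 0.16 over 15503 loci. Cd74 varied more within groups than 94.6% of loci, and RT1-Ba, the least variable of the 5, more than 91.3%. B2m, at 0.14, varied more than 35.1% of loci, Tap1, at 0.08, more than 7.12%, Tap2, at 0.16, more than 50% and Psmb8, at 0.20, more than 64.2%. Among loci with a mean within 2-fold of the gene's own, these shares were 59.7%, 3.07%, 50.1% and 69.3%. Over all loci after centring they were 51.9%, 10.6%, 42.6% and 70.2%, so the rank of B2m depended on the comparison made.

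Over the 9 rats the class II genes varied together. Pearson's r of median-centred log2(TPM + 1) was between 0.593 and 0.955 for the 10 pairs among them, with a median of 0.845 and Spearman's rho between 0.533 and 0.983. It was 0.955 between Cd74 and RT1-Db1 and 0.951 between Cd74 and RT1-Da. With each value taken from its group mean, so that group differences do not enter, r was between 0.543 and 0.980. Without the 2 rats farthest from the median it was between 0.397 and 0.954. The 20 pairs of a class II gene with B2m, Tap1, Tap2 or Psmb8 had r between -0.409 and 0.557, with a median of 0.229, and the 6 pairs among those 4 had r between 0.155 and 0.686. Taken from group means, the mixed pairs had r between -0.359 and 0.853 (median 0.203), and without the 2 farthest rats between -0.248 and 0.706. Psmb8 had the highest of these, an r from group means of 0.832 with Cd74, 0.853 with RT1-Da, 0.798 with RT1-Db1 and 0.717 with RT1-Bb, though 0.481 with RT1-Ba. Without the 2 farthest rats the r of Psmb8 with the 5 genes was between 0.413 and 0.594. These values describe 9 libraries whose genes share composition and depth, and the RT1 chains may share reads.

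A class II score, the mean of the 5 centred deviations in each rat, was 0.26, -0.63 and 0.60 in JA, -0.42, 0.29 and 0.60 in SNI and -0.13, -0.72 and 0.16 in PLM. Every group thus held a rat below -0.4 and a rat above 0.1, and the 3 groups overlapped. The low rats were JA replicate 2, SNI replicate 1 and PLM replicate 2.

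Among 13944 genes with a symbol and a mean of at least 1 TPM, members left out, the 10 most like the class II score over the 9 rats were Itgb5 (r = 0.915), LOC100365958 (0.906), Hikeshi (0.905), AABR07036855.1 (0.881), Sumf1 (0.870), Traf3ip1 (0.869), Fundc2 (0.862), Gulp1 (0.860), Odc1 (0.850) and Pigy (0.841). Itgb5, an integrin beta chain, was at 31.1, 24.6 and 29.2 TPM in JA, 30.1, 33.8 and 31.6 TPM in SNI and 24.9, 23.9 and 27.1 TPM in PLM. Its range was narrow beside that of Cd74. Ranking so many genes over 9 samples returns high values in any case, so the list is a description.

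Markers of other cells moved with the class II genes to differing degrees, and their part in the results was not tested. Prx, a protein of the myelinating Schwann cells of the nerve roots, was at 13.9, 2.37 and 124.7 TPM in JA, 8.5, 73.7 and 27.4 TPM in SNI and 4.54, 15.1 and 54.7 TPM in PLM, so its level differed widely between rats of 1 group. The lowest Prx value in JA and in SNI came from the same rats that were low in class II, which in PLM was not so. The r with the class II score was 0.718 for Prx and 0.704 for Dcn, a fibroblast proteoglycan. For the microglial genes it was -0.665 for Csf1r, the receptor for colony-stimulating factor, and -0.173 for Aif1, which encodes IBA-1. It was 0.412 for Pf4 of border macrophages and 0.093 for Gfap of astrocytes. For Hba-a1 of red blood cells it was -0.006, and for S100a8 of neutrophils and monocytes -0.099. Each is a single gene of a longer marker list over 9 rats, so these values do not speak for the lists.

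**Figure D3:**
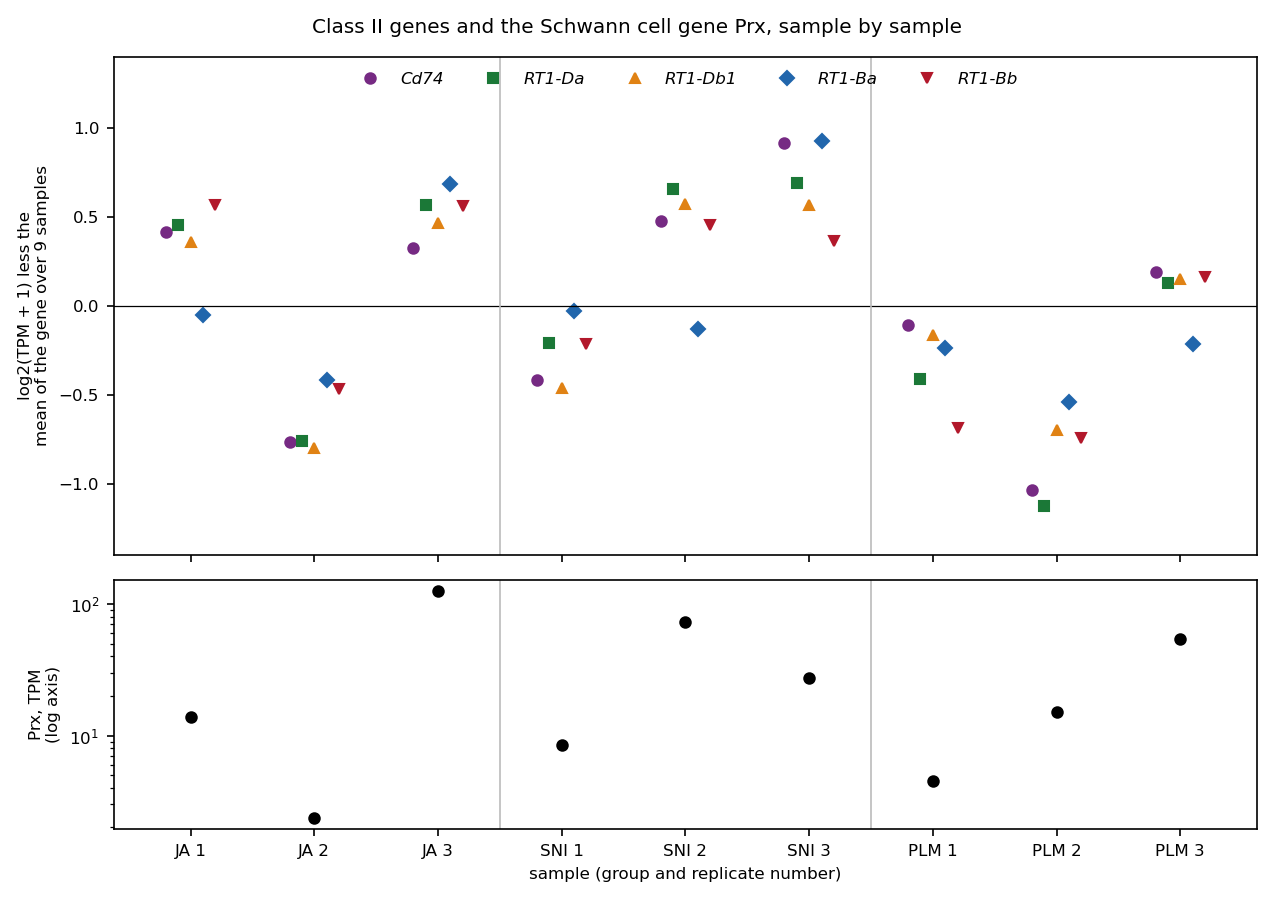
Top, log2(TPM + 1) of Cd74, RT1-Da, RT1-Db1, RT1-Ba and RT1-Bb in each rat, less the mean of the gene over all 9 rats. Bottom, TPM of the Schwann cell gene Prx on a log axis. The class II genes are low together in JA replicate 2 and PLM replicate 2 and high together in JA replicate 3 and SNI replicate 3, and Prx ranges from 2.37 to 124.7 TPM.

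Markers of immune cells that can carry class II were also summed, and their part in the results was not tested either. Microglia, border macrophage and B cell sums overlapped between all groups. The 16 microglia markers, of which 16 had a mean of at least 1 TPM, summed to between 670.0 and 807.2 TPM in JA, 654.9 and 699.6 in SNI and 634.5 and 726.3 in PLM. The 10 border macrophage markers summed to 15.1 to 22.0 TPM in JA, 14.5 to 26.1 in SNI and 15.2 to 18.8 in PLM, and Clec10a, a lectin of these macrophages, was at 2.47 to 6.89 TPM over the 9 rats (r = 0.526 with the class II score). The 10 T and NK cell markers listed summed to 11.2 to 16.0 TPM in JA, 6.38 to 16.5 in SNI and 4.84 to 10.4 in PLM, so that PLM lay below JA in every rat. The largest single part of it was Cd4 (1.98 to 13.5 TPM), which rat macrophages and microglia also carry, while Cd3e was at 0.11 to 0.41 TPM and Klrb1 was listed at 0 in all 9 samples. The 6 B cell markers summed to 1.94 to 6.89 TPM over all samples with Ms4a1 at 0 to 0.21 TPM. The 8 dendritic cell markers summed to 6.66 to 10.4 TPM in JA, 10.8 to 12.2 in SNI and 8.37 to 9.93 in PLM, so that SNI lay above both other groups in every rat. Most of that was Flt3 (4.64 to 10.03 TPM), while Xcr1 and Clec9a, which define a class of these cells, were at 0 to 0.04 and 0.07 to 0.26 TPM.

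Ciita (ENSRNOG00000002659) was at 0.12, 0.06 and 0.03 TPM in JA, 0.06, 0.17 and 0.03 TPM in SNI and 0.09, 0.02 and 0.06 TPM in PLM. It was under the filter in every comparison and the groups overlapped. At 2 decimals these values are too coarse to follow against the class II genes. In the fit without a filter the difference was 0.02 on the log2(TPM + 1) scale in SNI versus JA (SE 0.07) and -0.04 in PLM versus SNI (SE 0.06), with -0.02 in PLM versus JA. Centred, the signs turned (-0.09, 0.19 and 0.10), but for a gene so near 0 the subtracted sample median sets most of these values, by construction. Of the other regulators of these promoters, Nlrc5, which acts on class I genes as Ciita does on class II, also lay under 1 TPM on average (0.212 TPM). The RFX and NF-Y subunits were present, with Nfyc at 24.0 TPM and Nfyb at 22.6 TPM on average. Nfya, the DNA-binding subunit of NF-Y, was the 1 gene of 8 tested in this list that was called in PLM versus SNI, at 5.19 against 3.74 TPM (log2 fold change -0.38, adjusted p = 0.0407, limma), against 13.6% of all loci called lower. Centred, it was -0.14 (adjusted p = 0.516, limma).

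On the class I side, B2m (ENSRNOG00000017123) was at 365.5, 386.1 and 328.8 TPM in JA, 323.6, 387.6 and 348.6 TPM in SNI and 311.1, 250.4 and 277.9 TPM in PLM. All 3 PLM rats were below all SNI and all JA rats, while JA and SNI overlapped. The means were 360.1 ± 29.0, 353.3 ± 32.3 and 279.8 ± 30.4 TPM (SD, n = 3). B2m had a log2 fold change of -0.03 in SNI versus JA (SE 0.10, 95% interval -0.27 to 0.21, adjusted p = 0.915, limma). It was -0.34 in PLM versus SNI (SE 0.10, 95% interval -0.58 to -0.09, adjusted p = 0.0710, limma) and -0.37 in PLM versus JA (SE 0.11, adjusted p = 0.346, limma), so neither was called. Centred, the differences were -0.09 (adjusted p = 0.763, limma) and -0.24 (adjusted p = 0.540, limma), and the groups overlapped.

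Tap1 (ENSRNOG00000000457) was at 4.2, 4.29 and 3.76 TPM in JA, 4.31, 5.11 and 4.45 TPM in SNI and 3.39, 3.50 and 3.65 TPM in PLM. The 3 groups did not overlap, with PLM lowest and SNI highest, although JA replicate 2 and SNI replicate 1 differed by only 0.02 TPM. Tap1 had log2 fold changes of 0.14 in SNI versus JA (SE 0.12, adjusted p = 0.651, limma), -0.31 in PLM versus SNI (SE 0.10, 95% interval -0.55 to -0.08, adjusted p = 0.0739, limma) and -0.17 in PLM versus JA (SE 0.11, adjusted p = 0.580, limma). After centring these were 0.02, -0.07 and -0.05, and all 3 comparisons overlapped. With a rat left out, the deposited SNI versus JA value ranged from 0.083 (without SNI replicate 2) to 0.18 (without SNI replicate 1).

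Tap2 (ENSRNOG00000000455), the partner of Tap1 in the same pump, was at 9.98, 9.52 and 8.63 TPM in JA, 9.44, 10.4 and 8.04 TPM in SNI and 8.03, 7.60 and 10.3 TPM in PLM. The groups overlapped in all comparisons. Tap2 had a log2 fold change of -0.02 in SNI versus JA (SE 0.12, adjusted p = 0.958, limma) and -0.10 in PLM versus SNI (SE 0.14, 95% interval -0.43 to 0.23, adjusted p = 0.619, limma), which turned to 0.15 when centred. Tap2 was 1.81 to 2.82 times as high as Tap1 within the samples.

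Psmb8 (ENSRNOG00000000456) was at 15.5, 13.6 and 15.6 TPM in JA, against 10.6, 12.9 and 11.9 TPM in SNI and 11.9, 8.70 and 13.5 TPM in PLM. All 3 JA rats were above all SNI and all PLM rats, by 0.04 TPM between the nearest pair of JA and PLM, and SNI and PLM overlapped. Psmb8 had a log2 fold change in SNI versus JA of -0.31 (SE 0.11, 95% interval -0.58 to -0.05, adjusted p = 0.614, limma), and -0.44 after centring (95% interval -0.71 to -0.16, adjusted p = 0.889, limma), where JA and SNI still did not overlap. In PLM versus JA it was -0.38 (SE 0.16, adjusted p = 0.430, limma), or -0.25 when centred. With a rat left out it ranged there from -0.50 (without PLM replicate 3) to -0.21 (without PLM replicate 2). In PLM versus SNI it was -0.06 (SE 0.16, adjusted p = 0.786, limma), turning to 0.18 when centred. Psmb5, the subunit that Psmb8 replaces in the immunoproteasome, was 15.5, 13.7 and 14.3 times as high as Psmb8 in JA, 23.0, 16.5 and 20.7 times in SNI and 17.99, 24.7 and 15.3 times in PLM. This ratio, free of the scaling of the sample, was lower in every JA rat than in every SNI rat and overlapped between JA and PLM.

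Counted over the 9 members tested, groups did not overlap for 2 members in SNI versus JA (Tap1 higher, Psmb8 lower), against 13.8% of all loci. They did not overlap for 3 in PLM versus SNI (RT1-Ba, B2m and Tap1, each lower), against 41.9% of loci lower without overlap, and for 3 in PLM versus JA (B2m, Tap1 and Psmb8, each lower), against 15.7%. Centred, the counts were 1 (Psmb8), 0 and 0, against 10.9%, 23.8% and 16.4% of loci in either direction. The count in PLM versus SNI was thus below the background share both ways.

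The genes around the members in the pathway came from 10 lists written from general knowledge, but with earlier results of these data known. Of 66 genes tested in each comparison, limma called 0 in SNI versus JA and 0 in PLM versus JA, on deposited and on centred values. At an unadjusted p under 0.05 there were 8 in SNI versus JA, against 7.10% of all loci, and 18 in PLM versus JA, against 11.8%. Centred, these were 6, against 4.83%, and 11, against 9.98%. In PLM versus SNI as deposited, 11 of the 66 were called, from 4 lists and each of them lower, against 13.6% of all loci called lower, and 29 had an unadjusted p under 0.05, against 37.1%. After centring 0 were called and 11 had an unadjusted p under 0.05, against 16.9%.

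Class I peptide loading genes fold class I molecules and edit their peptides in the endoplasmic reticulum. Of these, 8 of 8 tested had a lower mean in PLM than in SNI, against 85.0% of all loci. The test was passed by 4, against 13.6% of all loci. When centred, 7 of 8 were lower and 0 passed. Calr, the chaperone calreticulin, was at 373.6, 396.1 and 401.2 TPM in SNI and 300.0, 292.2 and 301.5 TPM in PLM, with no overlap. It differed by -0.39 on the log2 scale (adjusted p = 0.0128, limma), or -0.14 after centring. Hspa5, a general chaperone of the same compartment, fell from 194.6 to 156.2 TPM (log2 fold change -0.32, adjusted p = 0.0227, limma; centred -0.07). Pdia3, at 200.9 and 166.8 TPM, and Canx, at 182.1 and 144.2 TPM, were the other two (adjusted p = 0.0306 and 0.0407, limma). All 4 also serve protein folding at large. Tapbp, which bridges class I to the TAP pump, was not called (10.6 against 7.75 TPM, adjusted p = 0.112, limma).

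Among class II compartment enzymes, which make and cut the peptides that class II carries, 6 of 7 tested had a lower mean in PLM than in SNI. This was near the 85.0% of all loci that were lower. The test was passed by 3, against the same 13.6%. When centred, 4 of 7 were lower and 0 passed. Ifi30, the thiol reductase GILT that unfolds antigen in the endosome and is induced by interferon, was at 22.2, 23.5 and 20.3 TPM in JA, 22.7, 23.7 and 24.2 TPM in SNI and 15.1, 14.5 and 14.5 TPM in PLM. PLM lay well below both other groups in every rat, and JA and SNI overlapped. From SNI to PLM the log2 fold change was -0.64 (SE 0.06, adjusted p = 0.00543, limma), and -0.39 after centring, which was not past the threshold (adjusted p = 0.0857, limma). Ctsb and Ctsd, lysosomal proteases of broad function, fell by 0.30 and 0.34 on the log2 scale (adjusted p = 0.0216 and 0.0366, limma; centred -0.05 and -0.09). Ctss, the protease that cuts the invariant chain, averaged 205.5 TPM in SNI against 217.3 TPM in PLM (adjusted p = 0.498, limma), and Cst3, a secreted cathepsin inhibitor at 7380 TPM on average, was not called either.

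On the interferon gamma route, which induces Ciita and the class I genes, 7 of 9 tested had a lower mean in PLM than in SNI. That is below the 85.0% of all loci that were lower. The test was passed by 3, again against 13.6%. When centred, 4 of 9 were lower and 0 passed. Jak1, a kinase bound to the receptor, and Irf2, a factor of GAAA elements, were among the 3 (log2 fold changes -0.32 and -0.31, adjusted p = 0.0385 and 0.0499, limma; both -0.07 when centred). Ifngr1, a receptor chain, averaged 47.3 TPM in SNI against 37.3 TPM in PLM (adjusted p = 0.0725, limma). Ifng itself was listed at 0 in 8 of 9 samples and at 0.18 TPM in SNI replicate 3.

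**Figure D4:**
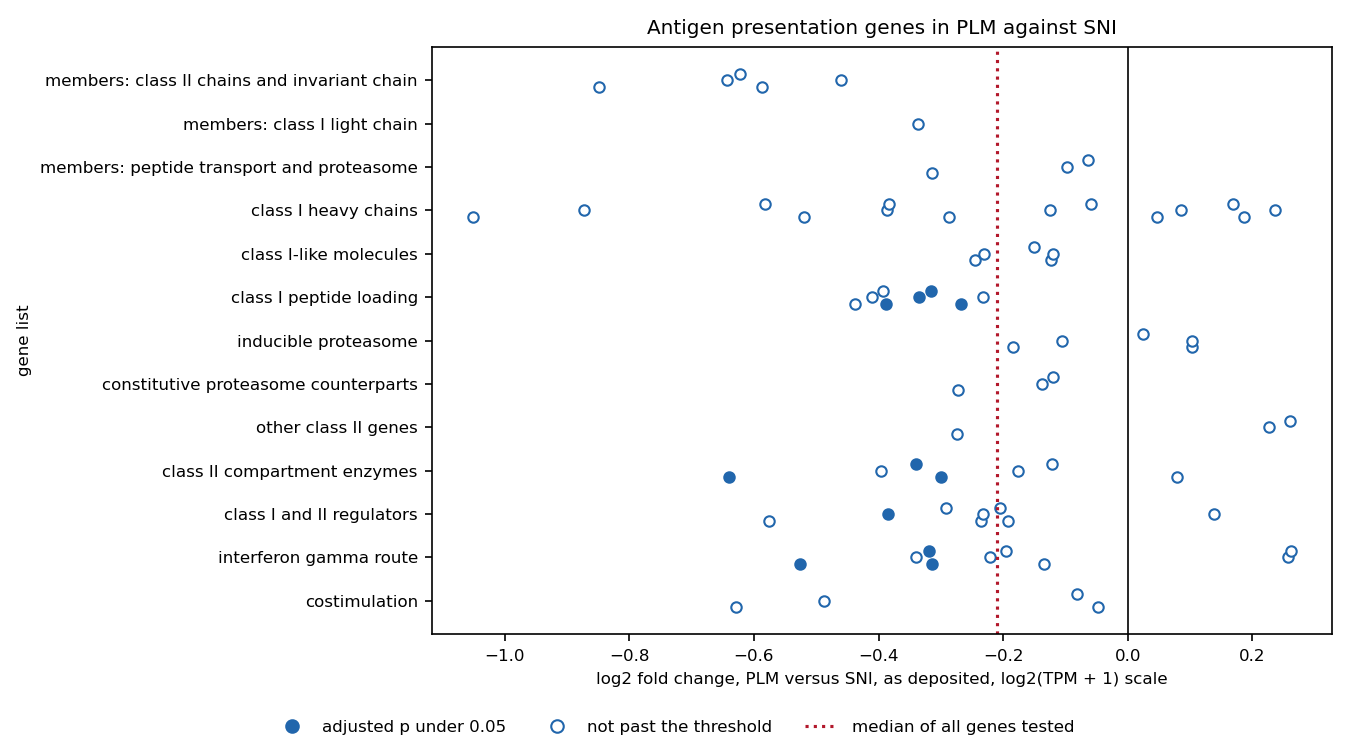
Log2 fold change in PLM versus SNI on deposited values (x axis, log2(TPM + 1) scale) of each tested gene of the members and of the 10 pathway lists (y axis), filled where the adjusted p from limma is under 0.05, with the median of all genes tested as a dotted line. The called genes are all lower and lie in the peptide loading, compartment, regulator and interferon gamma lists, and the class II members lie left of the dotted line without being called.

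The remaining lists held 0 called genes in PLM versus SNI. Of 21 class I heavy chain genes listed 14 were tested, with a median log2 fold change of -0.21 and 9 lower, against 85.0% of all loci. When centred, 7 of the 14 were lower, with a median of 0.04. RT1-CE4 averaged 154.2 TPM in SNI against 147.0 TPM in PLM, and RT1-A1 at 124.9 and 98.6 TPM. RT1-A2, picked out for its size after the values were seen, was at 69.0, 133.1 and 129.3 TPM in the SNI rats and 70.8, 49.5 and 36.9 TPM in the PLM rats, which overlapped (log2 fold change -1.05, SE 0.32, adjusted p = 0.0728, limma), and -0.80 after centring (adjusted p = 0.323, limma). Of the 5 class I-like genes, Fcgrt, the neonatal Fc receptor, was at 26.4 and 22.4 TPM and Mr1, which presents vitamin metabolites, at 4.51 and 3.92 TPM. The 5 inducible proteasome genes had a median of 0.02, and Pomp, which assembles the particle, was at 367.1 and 394.2 TPM, with Psme1, an activator of the particle, at 76.5 and 67.4 TPM. The 3 constitutive counterparts had a median of -0.14, with Psmb7 at 362.5 and 333.5 TPM and Psmb5 at 233.9 and 212.1 TPM. Of the other class II genes 3 were tested and 1 was lower, with a median of 0.23, or 0.47 when centred. RT1-DMa, a chain of the molecule that loads peptides onto class II, was at 22.6 and 18.2 TPM. RT1-DMb, the other chain, was at 10.3 and 12.3 TPM (log2 fold change 0.23, adjusted p = 0.227, limma). In the costimulation list Icam1 was at 3.38 and 3.22 TPM and Cd274, which encodes PD-L1, at 3.98 and 2.55 TPM (adjusted p = 0.0570, limma).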

How the data were processed

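RNA from 9 spinal cord samples was grouped by the sample labels, and each sample is 1 replicate. According to the methods, the authors mapped reads with HISAT2 and estimated expression with StringTie; the submitters' processing notes also name CASAVA, fastp 0.19.5 and the human build GRCh38.p13, although the identifiers are those of rat Ensembl genes, so the build used stays unclear. The deposited values are TPM, with 2 decimals and a total of about 1000000 per sample. The unit was read from the values. Depth is unknown and count tests were not used.

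Groups were compared in pairs on log2(TPM + 1) with limma 3.58.1 in R 4.3.3 (variance trend, no covariate, loci averaging 1 TPM or more in the 6 samples), with Benjamini-Hochberg adjustment over all loci and calls at an adjusted p under 0.05. The pseudocount understates changes of low genes. The same fit was run on median-centred values. Calling was tested on simulated data with independent normal noise and no sample-wide shift, so it does not speak to such shifts. Of 100 genes changed by 0.75 on the log2 scale, 43 were recovered in SNI versus JA, 60 in PLM versus SNI and 55 in PLM versus JA. Of 100 changed by 1.5, 84, 88 and 88 were recovered. False calls numbered 4, 11 and 15. Tables were handled with Python 3.11.15 and pandas 2.3.3.

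All 10 members were named. From each pathway list the 2 genes with the highest mean TPM, and up to 2 higher and 2 lower called genes with the smallest p, were named. Named outside this rule, with their values known, were Canx, Tapbp, Ctsd, Ctss, Irf2, Ifng, Nlrc5, Psmb9, Cd86, RT1-A2, RT1-CE1, RT1-CE7, RT1-CE10, RT1-N2, RT1-S3, RT1-T24-4, RT1-DMb and the cell type markers. Members, lists and motif letters were chosen with earlier results of these data known. Alternatives tried were a pseudocount of 0.1, no filter, at least 1 TPM in every sample, median-centring, quantile normalization, TPM rescaled without 13 mitochondrial protein genes, 1 fit over all 9 samples, a replicate block, loci of 1 symbol summed, and leaving out each sample. Sequences are from RefSeq (GRCr8). Results for 3 genes are not reported here.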

Additional observations from a re-analysis of the deposited data

How the results depend on the processing

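With 3 rats a group the intervals of the class II genes stayed wide, and depth is unknown. The number of members called stayed at 0 in all 3 comparisons under every alternative run, including the replicate block, which also gave 0. Same-numbered samples correlated between -0.0461 and 0.126 in their deviations from group means, and differently numbered samples between -0.192 and 0.136. Over all loci, samples of 1 number were thus not more alike. Whether the rats shared an order or batch by number was not tested. Over all loci the block gave 152 calls in PLM versus SNI where the reported fit gave 2148. The fit to all 9 samples gave 486, the fit without a filter 1258, and leaving out a sample 275 to 1494.

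Members without overlap moved. In SNI versus JA they were 2 as reported, 1 when centred, quantile-normalized or rescaled without mitochondrial genes, and 2 to 5 with a sample left out (5 without SNI replicate 1). In PLM versus SNI they were 3 as reported, 0 when centred or quantile-normalized, 1 when rescaled, and 3 to 7 with a sample left out (7 without SNI replicate 1, 6 without PLM replicate 3). In PLM versus JA they were 3 as reported, 0 when centred, 1 when quantile-normalized, 2 when rescaled, and 3 to 8 with a sample left out (8 without JA replicate 2, 5 without PLM replicate 3). The fewer samples left make separation easier by construction.

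Some log2 fold changes, none of them called, changed sign. With a sample left out, SNI versus JA ranged from -0.045 to 0.70 for Cd74, -0.15 to 0.49 for RT1-Ba, -0.36 to 0.19 for RT1-Bb, -0.13 to 0.59 for RT1-Da, -0.19 to 0.56 for RT1-Db1, -0.097 to 0.033 for B2m and -0.093 to 0.073 for Tap2. PLM versus SNI ranged from -0.19 to 0.10 for Psmb8, and PLM versus JA from -0.69 to 0.049 for Cd74. Centred, quantile-normalized and rescaled values in PLM versus SNI were 0.15, 0.15 and 0.036 for Tap2 and 0.18, 0.18 and 0.073 for Psmb8. In PLM versus JA, Tap2 was 0.0095 when centred and 0.012 when quantile-normalized. In PLM versus SNI the 5 class II genes were lower under each of these scalings and with any sample left out, but by amounts that hung on single rats: -1.01 (without SNI replicate 1) to -0.28 (without PLM replicate 2) for Cd74, -1.15 (without PLM replicate 3) to -0.52 (without PLM replicate 2) for RT1-Da, -0.80 (without SNI replicate 1) to -0.23 (without PLM replicate 2) for RT1-Db1, -0.78 (without SNI replicate 2) to -0.25 (without SNI replicate 3) for RT1-Ba and -0.92 (without PLM replicate 3) to -0.46 (without PLM replicate 2) for RT1-Bb. Apart from the scalings, whose construction moves all genes, the cause of these changes was not tested.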

Other observations

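The pair RT1-Ba and RT1-Bb, which form 1 molecule, did not keep a fixed ratio between rats, a pattern noticed after the values were seen. RT1-Ba over RT1-Bb was 1.16, 2.06 and 2.03 in JA, 2.23, 1.195 and 2.83 in SNI and 2.92, 2.42 and 1.41 in PLM, replicates 1 to 3. The lowest ratio in each group was thus in JA replicate 1, SNI replicate 2 and PLM replicate 3, and the nearest other rat had 2.03. RT1-CE4, the class I heavy chain gene with the highest mean, was at 85.6, 214.3 and 167.1 TPM in JA, 195.6, 100.2 and 167.0 TPM in SNI and 199.2, 132.8 and 109.1 TPM in PLM, again lowest in those rats in each group. RT1-CE1 was at 6.52, 10.6 and 12.2 TPM in JA, 10.45, 6.17 and 8.37 TPM in SNI and 11.8, 13.6 and 3.52 TPM in PLM, lowest in the same rats. RT1-CE10, at 12.1, 29.6 and 27.4 TPM in JA, 27.4, 19.2 and 30.3 TPM in SNI and 24.8, 19.7 and 10.4 TPM in PLM, was too. RT1-N2 ran the other way, at 9.75, 3.01 and 5.14 TPM in JA, 3.40, 7.58 and 6.66 TPM in SNI and 6.20, 5.08 and 8.39 TPM in PLM. RT1-S3 and RT1-T24-4 were likewise highest in these rats in each group. Of the 14 heavy chain genes averaging 1 TPM or more, 3 were thus lowest and 3 highest in all of these rats, and 8 were neither. Of the 8, RT1-A1 and RT1-CE7 were lowest in JA replicate 1 and PLM replicate 3 but highest of the SNI rats in SNI replicate 2 (127.8 and 13.3 TPM). The ratio of Cd74 to RT1-Da was lowest in those rats in SNI and PLM but not in JA, at 4.43, 4.83 and 3.85 in JA, 4.04, 3.99 and 5.31 in SNI and 5.87, 5.33 and 4.81 in PLM. No test was run on this, since the rats were picked by the values.

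The sum of the 5 class II genes was 130.3, 58.4 and 135.0 TPM in JA, 77.1, 138.3 and 178.7 TPM in SNI and 85.9, 49.6 and 109.4 TPM in PLM. Psmb9, the other inducible proteasome gene next to the TAP genes, was at 12.5, 12.1 and 12.1 TPM in JA, 8.77, 13.3 and 7.79 TPM in SNI and 8.64, 7.65 and 10.8 TPM in PLM. As with Psmb8, all 3 PLM rats were below all JA rats, while SNI replicate 2 was above them. Cd86, a costimulatory molecule of antigen-presenting cells, was at 2.86, 3.23 and 2.82 TPM in JA, 3.26, 4.60 and 2.44 TPM in SNI and 1.99, 1.91 and 1.55 TPM in PLM, with every PLM rat below every other rat. It was not called: the difference from SNI was -0.63 on the log2 scale (adjusted p = 0.0757, limma) with -0.38 after centring (adjusted p = 0.397, limma).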
